A study of Mus musculus with 2 samples.

Results

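Interferon-stimulated genes were followed in CD69-positive double-positive (DP) thymocytes, the T cell precursors that carry both CD4 and CD8 and have begun to show CD69, a mark of recent signalling through the T cell receptor. A fixed list of 39 gene names was matched by Entrez gene ID to the tables of RNA levels, in which 24532 gene IDs are listed. All 39 were found, and all 39 reached at least 1 TPM in at least 1 library, as 12029 genes did in all. TPM is an RNA level per transcript length, scaled to the same sum in every library. The members are given by name, and the list was drawn up with earlier results of these data known.

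The study made 2 libraries of total RNA from sorted cells of C57BL/6 mice aged 6 weeks. The library labelled KO came from NSRP1f/fCD4Cre mice, in which NSrp70, a splicing-related protein of nuclear speckles that Nsrp1 encodes, is deleted conditionally by Cre under the control of CD4, active from the DP stage. The library labelled WT came from NSRP1f/f mice, which carry the same floxed alleles without Cre. Each genotype has a single library, so differences have no replicate check and were not tested, and the labels do not give the number of mice behind a library. The 95% intervals (exact Poisson for levels, exact binomial or Clopper-Pearson for ratios) allow for counting error alone. They rest on read pairs estimated from coverage, which amounted to 5076 megabases of annotated exon in the library labelled KO and 4199 megabases in the library labelled WT.

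Nsrp1 itself stood at 29.6 TPM (27.9 to 31.5) in the KO-labelled library and 29.7 TPM (27.7 to 31.9) in the library labelled WT. Its RNA level thus does not separate the libraries, and they are named by their labels throughout. The sorting markers were high in both: Cd69 at 522 TPM in the library labelled KO and 430 TPM in the library labelled WT, Cd4 at 663 TPM in KO and 725 TPM in WT, and Cd8a at 1151 TPM in KO and 1138 TPM in WT. RNA of both sexes was present in both libraries in unequal parts, with the female-specific Xist at 76.3 TPM in the library labelled KO and 201.8 TPM in the library labelled WT and the Y-linked Ddx3y at 71.2 TPM in KO and 31.1 TPM in WT, so that genotype and the mix of sexes cannot be told apart. In bulk RNA, fewer cells of a type and less RNA per cell cannot be told apart either.

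Type I interferons bind a receptor of the chains IFNAR1 and IFNAR2, whose kinases JAK1 and TYK2 phosphorylate STAT factors, STAT2 among them. STAT2 and IRF9 are parts of the factor ISGF3, which binds interferon-stimulated response elements in promoters and switches on a common set of antiviral genes. Many of these genes are also transcribed at a low basal level, and thymic epithelial cells are known to produce interferon in the absence of infection.

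Since ISGF3 binds the response element, the promoters of 5 members are shown, 4 that hold its core and 1, Ifi44l, that does not. They are examples, and all 5 members were higher in the library labelled KO. Stat2 and Trim12c also hold the core in their windows and were lower there. Each is the 150 bases before the RefSeq start site in GRCm38.p6, written 5' to 3' on the strand of the gene, at chr19:34640739-34640888 on the plus strand (Ifit1) and, on the minus strand, at chr4:156200819-156200968 (Isg15), chr5:120907526-120907675 (Oas1a), chr8:71537473-71537622 (Bst2) and chr3:151762892-151763041 (Ifi44l). Capitals mark the core motif, GAAA, any 2 bases and GAAA again, searched on both strands, so that it can also appear as TTTC, any 2 bases and TTTC.
Ifit1: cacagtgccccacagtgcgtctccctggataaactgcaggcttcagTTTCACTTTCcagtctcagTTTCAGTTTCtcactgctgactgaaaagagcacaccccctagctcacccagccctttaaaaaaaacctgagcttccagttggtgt
Isg15: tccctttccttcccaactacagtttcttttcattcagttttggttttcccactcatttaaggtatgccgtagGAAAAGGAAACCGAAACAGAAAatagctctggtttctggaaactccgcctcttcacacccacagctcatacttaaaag
Oas1a: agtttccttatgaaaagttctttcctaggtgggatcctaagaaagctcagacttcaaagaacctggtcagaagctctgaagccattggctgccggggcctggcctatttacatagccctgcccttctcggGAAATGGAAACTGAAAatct
Bst2: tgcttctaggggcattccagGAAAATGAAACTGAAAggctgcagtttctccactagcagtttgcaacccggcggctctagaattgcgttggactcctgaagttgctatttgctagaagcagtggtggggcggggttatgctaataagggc
Ifi44l: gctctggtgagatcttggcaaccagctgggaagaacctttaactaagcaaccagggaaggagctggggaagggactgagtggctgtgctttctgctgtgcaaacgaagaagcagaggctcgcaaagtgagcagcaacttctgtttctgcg
In Ifit1 the 2 matches begin 104 and 85 bases before the start site, and in Isg15 the 3 matches overlap in a run that begins 78 bases before it. Oas1a has 2 overlapping matches beginning 20 and 14 bases before its start site, and Bst2 has 2 beginning 130 and 124 bases before the RefSeq start site, which lies 35 bases upstream of the start in the deposited annotation. Ifi44l has no match in its window.

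RefSeq promoter windows of 300 bases (250 before and 50 after the start) were at hand for 30 of the 39 members. The core motif, on either strand, was found in 16 of these 30 (53.3%), against 3.99% of the 27025 genes with a window. A longer motif of 3 GAAA units spaced by 2 bases, which contains overlapping copies of the core, was found in 3 (Isg15, Oas1a and Bst2), against 0.133% of genes. The STAT-type motif TTCNNNGAA was found in 7 (23.3%), against 9.55%. The 16 members with the core motif had a median difference between the libraries of 0.26 on the log2 scale, and the 14 without it 0.05. Of the 4 members past the 2-fold rule described below that were higher in the library labelled KO, 2 hold the motif, Ifit1 and Trim12a. That is near the share of all members with a window (53.3%), and the match of Trim12a begins 10 bases after the start site. Neither of the 2 lower ones holds the motif in its window. A link between the motif and the differences was not tested. These are matches of letters and show no binding.

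The members were present at ordinary levels in both libraries. They ranged over 2.84 to 274 TPM with a median of 26.0 TPM in the library labelled KO, and over 3.04 to 296 TPM with a median of 29.6 TPM in the library labelled WT, where the medians of all measured genes were 28.2 TPM in KO and 30.3 TPM in WT. Together they held 1790 TPM (0.179% of all TPM) in the library labelled KO and 1610 TPM (0.161%) in the library labelled WT. The most abundant was Slfn2 and the rarest were Oasl2, Rsad2, Mx1, Ifi44 and Ifi44l, each under 5 TPM in at least 1 library.

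**Figure D1:**
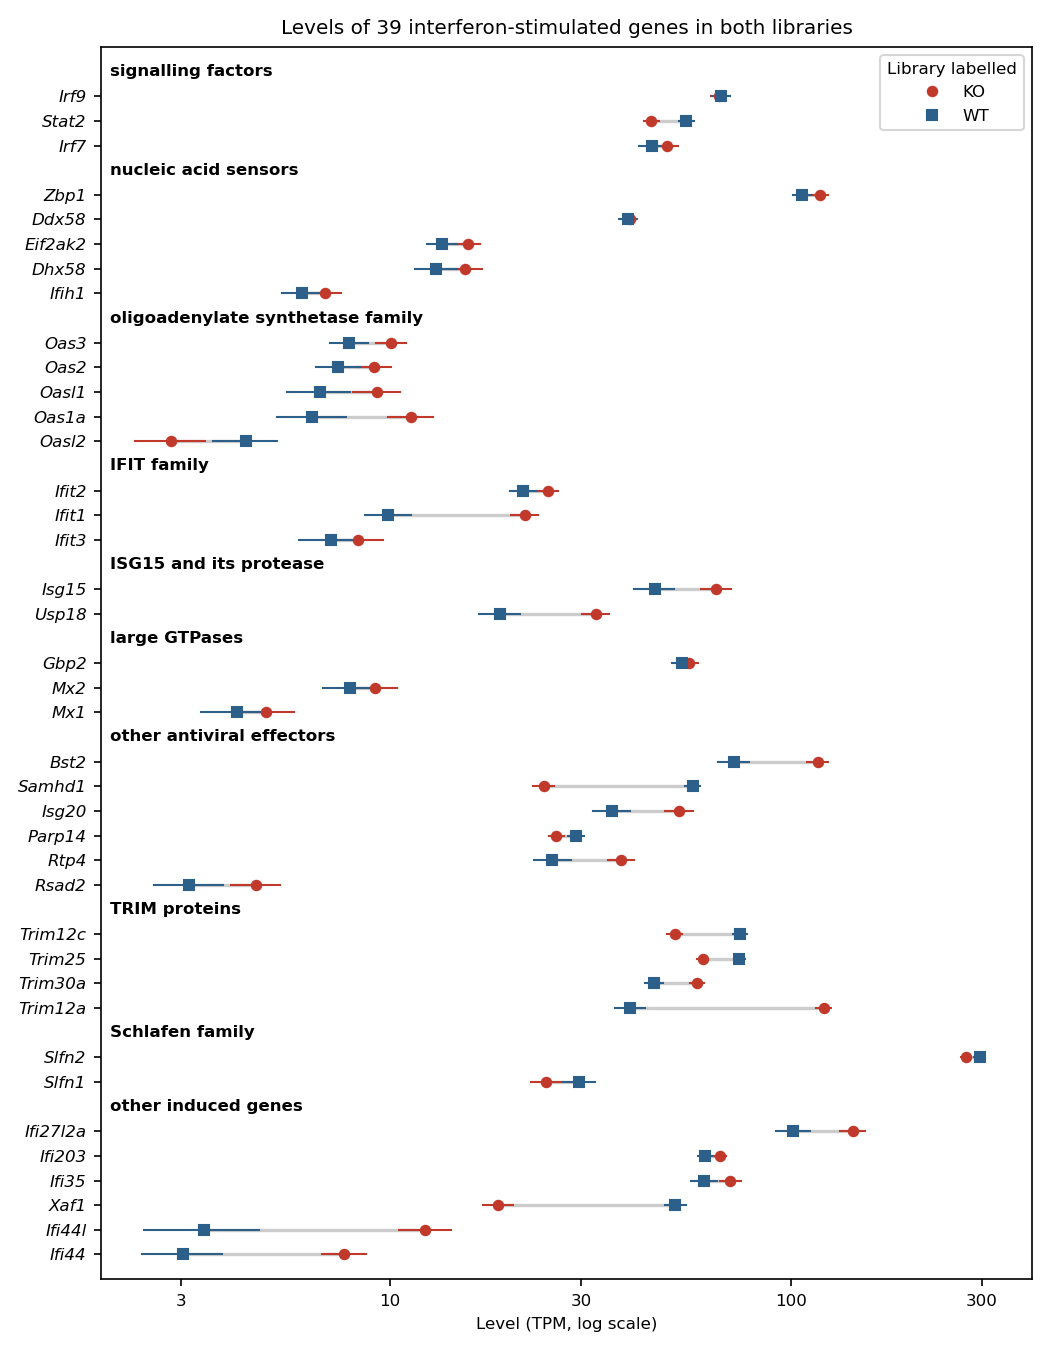
RNA levels (TPM, log scale) of the 39 interferon-stimulated genes, grouped by role, in the library labelled KO (red circles) and the library labelled WT (blue squares). Coloured bars are 95% exact Poisson intervals for counting error and grey lines join the 2 libraries. Trim12a, Ifi44l, Ifi44 and Ifit1 lie to the right in KO, Xaf1 and Samhd1 to the left, and most others lie close together.

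Differences are the log2 ratio of TPM + 1 between the libraries, KO over WT, and are smaller on this scale than the plain fold where levels are low, and a gene was called past the rule at a 2-fold difference on that scale. In all, 4 members were higher in the library labelled KO by this rule, Trim12a, Ifi44l, Ifi44 and Ifit1, where 0.657% of all measured genes were. There were 2 lower members, Xaf1 and Samhd1, where 1.37% of all genes were lower, and in either direction 2.03% of all genes passed. Of the 39 members, 29 lay above zero, against 38.5% of all genes, and their median was 0.20, against -0.07 for all genes. Within 0.5 of zero lay 66.7% of the members and 90.2% of all genes. A larger share of the members than of all genes thus lay beyond 0.5, mostly on the higher side. The counting interval of the ratio lay above equality for 22 members and below it for 9, and held it for 8: Irf7, Irf9, Ddx58, Ifih1, Ifit3, Gbp2, Mx1 and Mx2. These intervals cover counting error alone, and the same count was not made over all genes. The counts therefore do not set the members apart.

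The same comparison was made on the read depth of the exons other than the 3' terminal exon of the most abundant transcript, called the other exons here. There 2 members were higher, Trim12a and Ifi44l, where 0.622% of 11260 genes were, and 1 was lower, Samhd1, where 1.16% were (1.79% in either direction). On the other exons 28 of the 39 members lay above zero, against 31.7% of genes, with a median of 0.13 against -0.14. In 1 member, Xaf1, the differences in the terminal exon and in the other exons lay 2-fold or more apart, which held for 2.54% of genes.

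**Figure D2:**
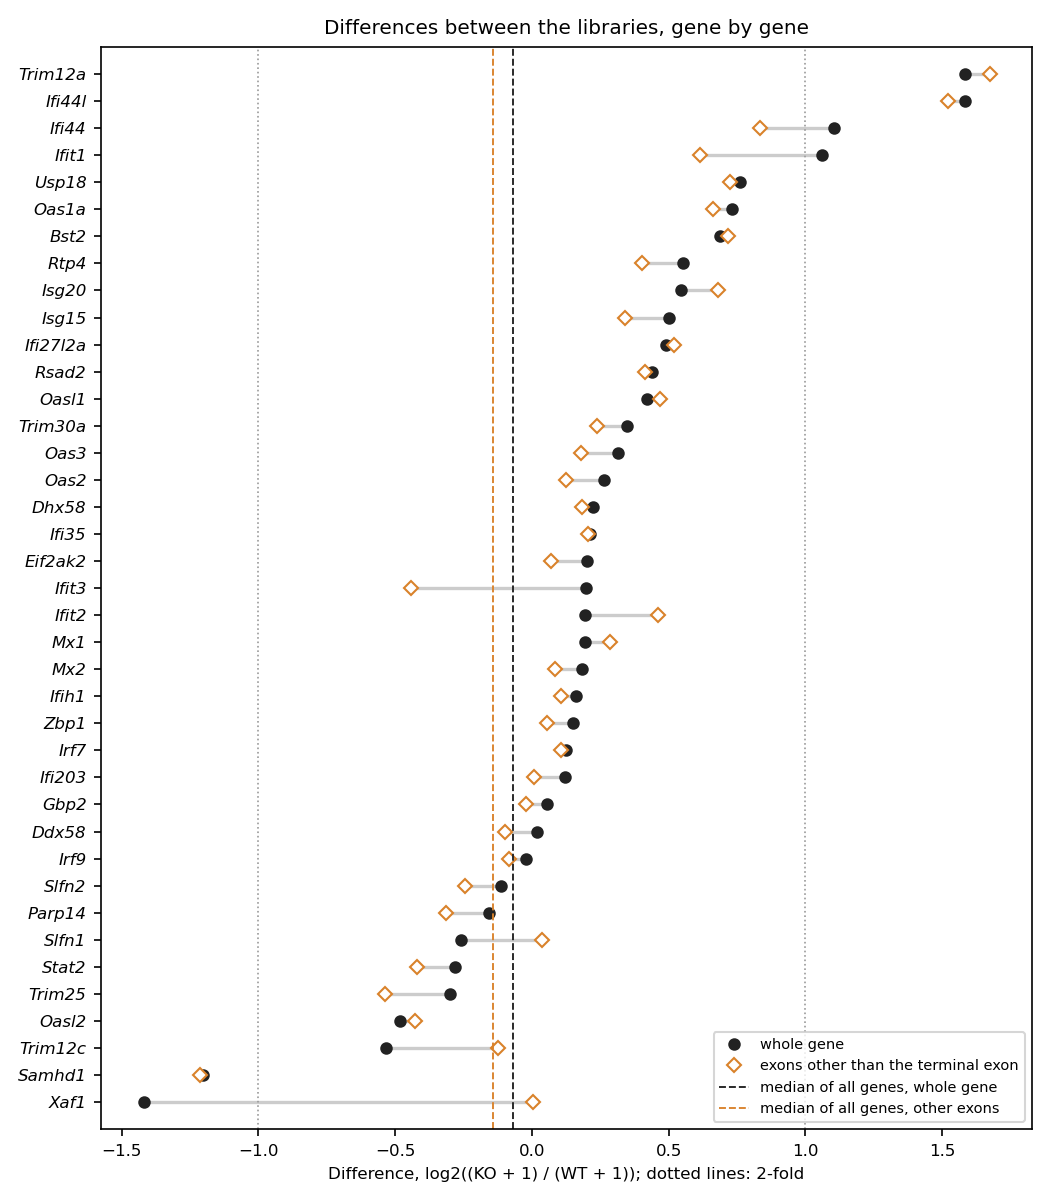
Difference between the libraries for each of the 39 genes, as log2 of the level plus 1 in KO over that in WT, for the whole gene (black circles) and for the exons other than the terminal exon (open orange diamonds). Dashed lines are the medians of all genes and dotted lines the 2-fold rule. The order is by the whole gene, and Xaf1 is the gene whose 2 marks lie farthest apart.

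Of the 3 members that encode signalling factors none passed the rule. Irf7 and Irf9 were close to level in both libraries, and Stat2 was modestly lower in the library labelled KO. Irf7, which drives interferon genes themselves, stood at 49.1 TPM (46.1 to 52.3) in the KO-labelled library and 45.0 TPM (41.7 to 48.4) in the library labelled WT, a difference of 0.12 on the log2 scale. Irf9, the DNA-binding part of ISGF3, stood at 66.1 TPM (63.1 to 69.2) in KO and 67.0 TPM (63.6 to 70.6) in WT, a difference of -0.02. Stat2 stood at 44.9 TPM (43.0 to 46.8) in KO and 54.8 TPM (52.5 to 57.2) in WT, a difference of -0.28. It was lower in KO in 24 of 24 exons, by depth ratios of 0.532 to 0.958, and its other exons lay at -0.42.

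The annotated transcripts of Irf9 changed shares. Of the 9 members with several transcripts and at least 10 TPM in both libraries, it alone passed a rule of 25 percentage points, which 6.63% of 3032 such genes passed. Its most abundant transcript held 51.3% of the gene's TPM in the library labelled KO and 84.4% in the library labelled WT. A second, with an extra exon of 86 bases at chr14:55604468-55604553, held 38.5% in KO and 14.0% in WT, and the last, with another first exon of 143 bases, 10.2% in KO and 1.63% in WT. The 3 transcripts differ only at this 5' end, where reads were few. The extra exon had about 12.6 read pairs in KO and 5.52 in WT, the common first exon 21.1 in KO and 27.6 in WT, and the other first exon 9.27 in KO and 5.65 in WT. The 8 exons that all 3 transcripts share had depth ratios of 0.912 to 1.05, so the shares rest on a small part of the reads.

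The 5 members that sense nucleic acids or act on them directly were all slightly above zero, with a range of 0.02 to 0.22 and none past the rule. Zbp1, a sensor of Z-form nucleic acids, was the most abundant, at 119 TPM in the library labelled KO and 107 TPM in the library labelled WT. Ddx58 (RIG-I), a sensor of viral RNA ends, stood at 39.7 TPM in KO and 39.2 TPM in WT, and Ifih1 (MDA5), a sensor of long double-stranded RNA, at 6.87 TPM in KO and 6.04 TPM in WT. The intervals of both ratios held equality. Dhx58 (LGP2), a regulator of these sensors, stood at 15.4 TPM in KO and 13.0 TPM in WT, and Eif2ak2 (PKR), the kinase that stops translation on double-stranded RNA, at 15.6 TPM in KO and 13.5 TPM in WT. On the other exons Ddx58 lay at -0.10. Zbp1 lay at 0.15 for the whole gene, at 0.06 on its other exons and at -0.14 in its terminal exon. Its shorter transcript, of 781 bases, held 54.1% of its TPM in KO and 43.0% in WT.

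Among the oligoadenylate synthetases, which make the messenger that activates RNase L, and their relatives, 4 of 5 were above zero and none passed the rule. Oas1a stood at 11.3 TPM (9.90 to 12.8) in the KO-labelled library and 6.40 TPM (5.23 to 7.75) in the library labelled WT, which is 1.77-fold (1.40 to 2.24) and 0.73 on the log2 scale. All 6 of its exons with at least 10 read pairs, summed over both libraries, were deeper in KO. Since 57.6% of its 50-base words also occur in its neighbour Oas1g, reads of the 2 cannot be told apart with certainty, and their sum was 13.5 TPM in KO and 7.10 TPM in WT. Oas3 stood at 10.1 TPM in KO and 7.91 TPM in WT, Oas2 at 9.11 TPM in KO and 7.42 TPM in WT, and Oasl1 at 9.26 TPM in KO and 6.67 TPM in WT. Oasl2 went the other way, at 2.84 TPM (2.31 to 3.46) in KO and 4.36 TPM (3.61 to 5.22) in WT, or -0.48 on the log2 scale, and 5 of 5 exons with at least 10 summed read pairs were lower. Oasl1 and Oasl2 together stood at 12.1 TPM in KO and 11.03 TPM in WT.

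The IFIT proteins bind viral RNA and hold back its translation. Ifit1, at chr19:34640889-34650009, stood at 21.7 TPM (20.05 to 23.5) in the KO-labelled library and 9.89 TPM (8.64 to 11.3) in the library labelled WT, which is 2.19-fold (1.88 to 2.57) and 1.06 on the log2 scale. Nearly all of its reads lie in its second exon, of 2539 bases, where depth was 22.3 TPM-equivalents in KO and 10.1 in WT. Its first exon of 99 bases held about 6.32 read pairs in KO and 2.91 in WT, and the value of 0.61 for its other exons rests on these alone. The intervals of the 2 levels do not overlap, and 7.13% of its 50-base words occur in other genes. Summed with its relatives Ifit1bl1 and Ifit1bl2, it stood at 31.6 TPM in KO and 15.0 TPM in WT. Its neighbours differed less. Ifit2 stood at 24.7 TPM in KO and 21.5 TPM in WT, and Ifit3 at 8.33 TPM in KO and 7.13 TPM in WT. Ifit3 shares 51.2% of its words with Ifit3b, and its other exons, with about 2.44 read pairs in KO and 2.80 in WT, lay at -0.44.

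Isg15, the ubiquitin-like modifier, and Usp18, the protease that removes it and dampens receptor signalling, were both higher in the library labelled KO without passing the rule. Usp18 stood at 32.6 TPM (30.1 to 35.2) in KO and 18.8 TPM (16.7 to 21.1) in WT, which is 1.73-fold (1.51 to 2.0) and 0.76 on the log2 scale. All 11 of its exons were deeper in KO, by ratios of 1.24 to 2.09. Isg15 stood at 65.2 TPM (59.8 to 70.9) in KO and 45.7 TPM (40.7 to 51.2) in WT, a difference of 0.50, with both exons deeper.

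The large GTPases, which assemble on viruses or on membranes around microbes, differed little. Gbp2 stood at 55.7 TPM in the library labelled KO and 53.6 TPM in the library labelled WT. Mx1 stood at 4.89 TPM in KO and 4.15 TPM in WT, and Mx2 at 9.17 TPM in KO and 7.96 TPM in WT. The main transcript of Mx1 held 57.3% of its TPM in KO and 84.0% in WT, at a level below the minimum of 10 TPM for transcript shares. Both Mx genes are known to be disabled in most laboratory mouse strains. All 3 ratios had intervals that held equality.

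The 6 other antiviral effectors included 4 above zero and 2 below, of which Samhd1 passed the rule. Bst2 (tetherin), which holds budding viruses at the cell surface, stood at 117 TPM (110 to 124) in the KO-labelled library and 72.1 TPM (65.8 to 78.9) in the library labelled WT, which is 1.62-fold (1.45 to 1.81) and 0.69 on the log2 scale. It was deeper in KO in 5 of 5 exons, by ratios of 1.42 to 1.73. Isg20, an exonuclease, stood at 52.6 TPM in KO and 35.7 TPM in WT, Rtp4, which binds the RNA of replicating flaviviruses, at 37.7 TPM in KO and 25.4 TPM in WT, and Rsad2 (viperin), which makes an antiviral nucleotide, at 4.63 TPM in KO and 3.15 TPM in WT. These 3 lay between 0.44 and 0.55 on the log2 scale. Parp14, an ADP-ribosyltransferase, stood at 26.0 TPM in KO and 29.0 TPM in WT.

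Samhd1, at chr2:157097529-157135222, encodes the enzyme that breaks down deoxynucleotides and so limits reverse transcription. It stood at 24.2 TPM (22.7 to 25.7) in the KO-labelled library and 56.9 TPM (54.4 to 59.4) in the library labelled WT. The level in KO was 0.425 times that in WT (0.394 to 0.458), or -1.20 on the log2 scale. All 17 exons were shallower in KO, with depths of 12.9 to 44.7 TPM-equivalents in KO and 35.1 to 115 in WT and ratios of 0.34 to 0.53. Its 2 annotated transcripts, which differ by an exon of 123 bases, kept nearly the same shares, at 47.4% in KO and 51.4% in WT for the longer. The lower level therefore ran through the whole gene and both transcripts.

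TRIM proteins are ubiquitin ligases, several of which act on viral capsids or on the sensors. Trim12a, at chr7:104299897-104315495 in a cluster of mouse relatives of the capsid-binding TRIM5, had, with Ifi44l, the highest difference of the 39, and the plain fold of Ifi44l was higher. It stood at 121 TPM (116 to 126) in the KO-labelled library and 39.7 TPM (36.4 to 43.3) in the library labelled WT, which is 3.04-fold (2.76 to 3.36) and 1.58 on the log2 scale. All 7 exons with at least 10 summed read pairs were deeper in KO, by ratios of 2.75 to 3.90, and the other exons lay at 1.67. Its paralog Trim12c, at chr7:104338754-104353358, stood at 51.4 TPM (49.2 to 53.7) in KO and 74.8 TPM (71.8 to 77.9) in WT, a difference of -0.53. On the other exons Trim12c lay at -0.12, and its terminal exon of 2620 bases had depths of 43.4 TPM-equivalents in KO and 73.2 in WT. The lower value of Trim12c thus sits in its terminal exon, and on the other exons it lay near the median of all genes (-0.14). Of the 50-base words of Trim12a, 31.2% occur in other genes, mainly Trim5 (20.1%) and Trim12c (16.1%), and of those of Trim12c 34.4% do. Summed, Trim12a and Trim12c stood at 172 TPM in KO and 114 TPM in WT, a difference of 0.59, and Trim5 stood at 16.4 TPM in KO and 12.03 TPM in WT.

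Trim30a, a mouse regulator of inflammatory signalling from the same chromosomal cluster, stood at 58.2 TPM in the library labelled KO and 45.5 TPM in the library labelled WT, a difference of 0.35. With its relative Trim30d the sum was 65.5 TPM in KO and 48.3 TPM in WT. Trim25, the ligase that activates RIG-I, stood at 60.2 TPM (58.3 to 62.2) in KO and 74.4 TPM (72.0 to 76.9) in WT, a difference of -0.30, and was lower in 8 of 9 exons.

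The Schlafen genes, of which Slfn2 is known to keep mouse T cells quiescent, were slightly lower. Slfn2 stood at 274 TPM in the library labelled KO and 296 TPM in the library labelled WT, and Slfn1 at 24.6 TPM in KO and 29.6 TPM in WT. Slfn1 lay at -0.26 for the whole gene and at 0.04 on its other exons. Its terminal exon makes up 1639 of its 1857 bases. The other exons had about 68.0 read pairs in KO and 51.3 in WT, too few to place so small a difference.

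Ifi44l and Ifi44, neighbours on chromosome 3 whose human counterparts are common markers of interferon exposure, were both low and both higher in the library labelled KO. Ifi44l, at chr3:151758737-151762891, stood at 12.2 TPM (10.5 to 14.2) in KO and 3.42 TPM (2.42 to 4.70) in WT, which is 3.58-fold (2.51 to 5.22) and 1.58 on the log2 scale, from about 175 read pairs in KO and 38.1 in WT. All 5 exons were deeper in KO, by ratios of 2.81 to 6.85, the highest of them in the last exon, which had about 2.02 read pairs in WT. Ifi44, at chr3:151730923-151749959, stood at 7.68 TPM (6.75 to 8.69) in KO and 3.04 TPM (2.40 to 3.80) in WT, which is 2.53-fold (1.95 to 3.31) and 1.10 on the log2 scale. Its 6 exons with at least 10 summed read pairs were all deeper in KO, by ratios of 1.03 to 3.54, and its other exons lay at 0.83.

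Xaf1, at chr11:72301629-72313733, encodes an antagonist of the apoptosis inhibitor XIAP. Its whole-gene level was 18.6 TPM (17.0 to 20.3) in the KO-labelled library and 51.5 TPM (48.5 to 54.6) in the library labelled WT, which makes KO 0.362 times WT (0.325 to 0.402), or -1.42 on the log2 scale. This difference lay in a single exon. The terminal exon of 1778 bases, at chr11:72311956-72313733, had a depth of 5.07 TPM-equivalents in KO and 50.4 in WT, a ratio of 0.101. The 5 exons before it differed by ratios of 0.972 to 1.08, with the fifth, for example, at 57.2 TPM-equivalents in KO and 58.8 in WT. Both annotated transcripts of Xaf1 end in this terminal exon, and the shorter held 48.2% of the gene's TPM in KO and 50.7% in WT. The tables list no transcript of Xaf1 with another last exon.

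**Figure D3:**
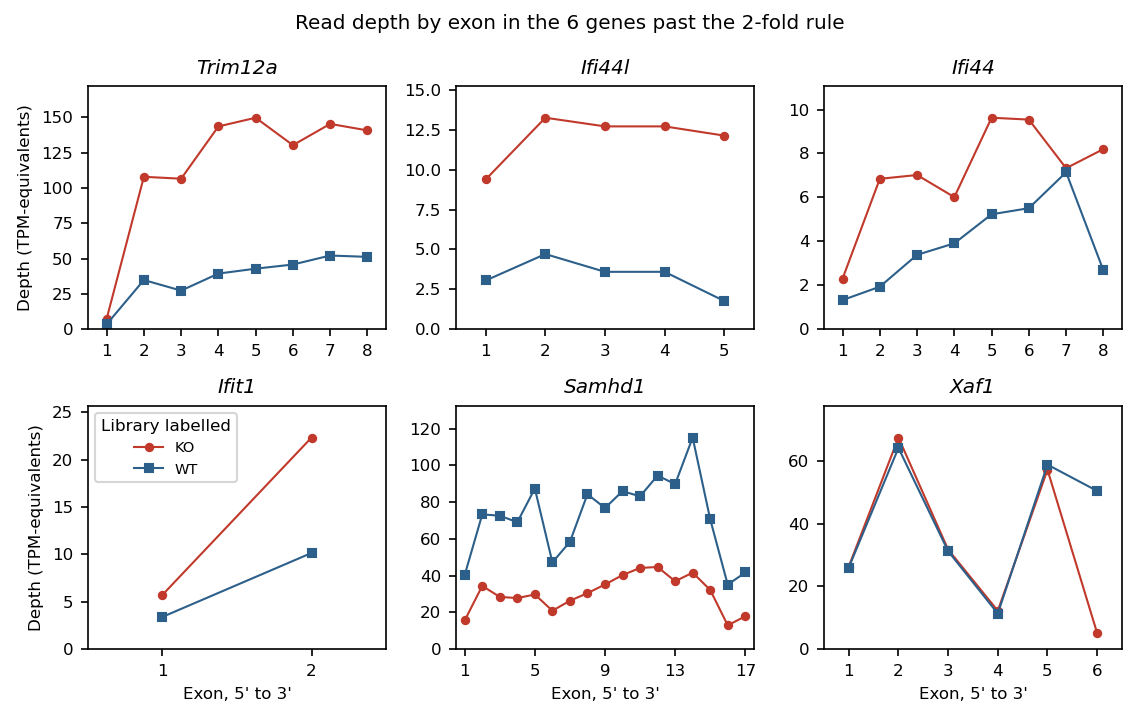
Read depth by exon (TPM-equivalents, exons numbered 5' to 3' and spaced evenly) in the 6 genes past the 2-fold rule, for the library labelled KO (red circles) and the library labelled WT (blue squares). The libraries run apart along all of Trim12a, Ifi44l and Samhd1, while in Xaf1 they coincide over 5 exons and part in the last, at 5.07 in KO and 50.4 in WT.

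The remaining induced genes were level or modestly higher in the library labelled KO. Ifi27l2a, which encodes a small membrane protein, stood at 143 TPM (133 to 154) in KO and 102 TPM (91.9 to 112) in WT, a difference of 0.49, and it overlaps Ifi27 on the opposite strand by 103 bases. Ifi35 stood at 70.6 TPM in KO and 60.8 TPM in WT, with 7 of 7 exons deeper. Ifi203, a PYHIN family DNA-binding protein gene, stood at 66.6 TPM in KO and 61.1 TPM in WT.

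In other lists of the pathway 1 gene, Trim30d, passed the same rule, which 2.03% of all measured genes passed. The interferon ligands were nearly silent: of 13 names 10 were at 0 in both libraries, and Ifng alone was measured, at 1.28 TPM in the library labelled KO and 1.33 TPM in the library labelled WT. Of 25 measured receptor and JAK-STAT genes, none passed the rule, 7 (28.0%) lay above zero, against 38.5% of all genes, and the median was -0.13. Within them Ptpn2, a phosphatase, was highest (80.1 TPM in KO and 68.7 in WT), followed by the receptor chain gene Il10rb (19.5 TPM in KO and 17.6 in WT), while Socs3, a feedback inhibitor (5.43 TPM in KO and 8.36 in WT), and the receptor kinase gene Tyk2 (36.9 TPM in KO and 48.4 in WT) were lowest.

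Of 19 measured sensor and adaptor genes upstream of interferon, none passed the rule, 6 (31.6%) lay above zero, against 38.5% of all genes, and the median was -0.06. Rnaseh2b, for a subunit of the enzyme that cuts RNA in hybrids with DNA, was highest at 40.0 TPM in the library labelled KO and 25.7 TPM in the library labelled WT, followed by the adaptor Myd88 (60.5 TPM in KO and 48.8 in WT). The DNA sensors Tlr9 (0.55 TPM in KO and 1.1 in WT) and Aim2 (35.1 TPM in KO and 46.4 in WT) were lowest. A longer list of other interferon-stimulated genes had 92 measured of 104 names. Of these 1 (1.09%) was higher and none lower, where 0.657% and 1.37% of all genes were. Above zero lay 48 (52.2%), against 38.5% of all genes, with a median of 0.03. The higher one was Trim30d (7.31 TPM in KO and 2.79 in WT), followed by Oas1g (2.21 TPM in KO and 0.707 in WT). On the other exons that list had 2 higher, Trim30d and Ccl5, and 1 lower, Tmem140, and the sensor list had 1 lower, Ticam1. Over all genes 0.622% were higher and 1.16% lower on the other exons. Ccl5, Tmem140 and Ticam1 were named after their values were seen. Helz2 (61.1 TPM in KO and 83.8 in WT) and Ifitm2 (4.24 TPM in KO and 6.07 in WT) were lowest. The median of the 39 members, 0.20, lay above those of the 3 lists. Members and lists were chosen with earlier results of these data known, so the choice may enter this difference, and no test of it was made.

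**Figure D4:**
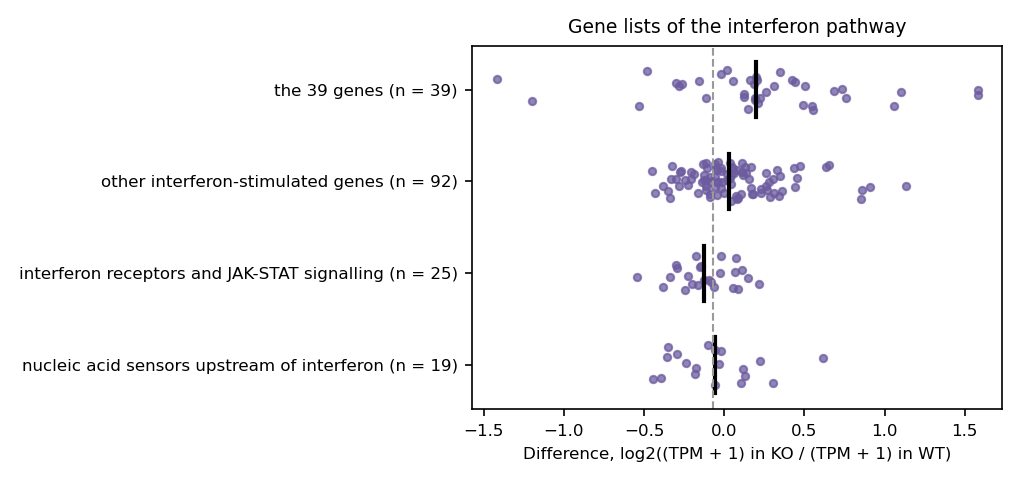
Differences between the libraries (log2, KO over WT) of the 39 genes and of 3 other lists of the interferon pathway. Points are genes, spread vertically at random, black bars are medians and the dashed line is the median of all genes (-0.07). The medians are 0.20 for the 39 genes, 0.03, -0.13 and -0.06 for the others, from top to bottom.

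Differences between the libraries varied with transcript length over all genes. Over 20 bins of length the median was -0.10 in the shortest, of 25 to 530 bases. From there on it ran from 0.11 among genes of 531 to 886 bases to -0.33 among those of 7247 bases or more. The 4 members under 1200 bases, Ifi27l2a, Isg15, Bst2 and Isg20, lay between 0.49 and 0.69. Of these Ifi27l2a, of 464 bases, falls in the shortest bin. Set against the median of genes of similar length, a comparison chosen after seeing the data, 31 of the 39 members lay above zero, their median was 0.29, and 4 members were higher and 2 lower, where 90 genes were higher and 128 lower of 12029. The median of all genes is zero by construction in this comparison. Parp14, the longest member, moved to 0.17 from its value of -0.16 for the whole gene.

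**Figure D5:**
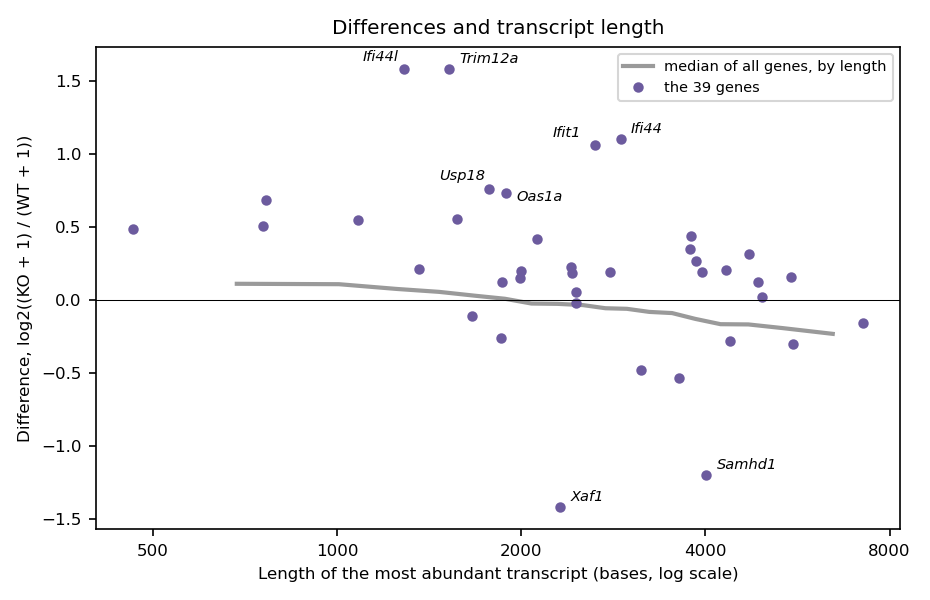
Difference between the libraries (log2, KO over WT) against the length of the most abundant transcript (bases, log scale) for the 39 genes (points), with the median of all genes by length (grey line, shortest and longest bins not drawn). Of the 39 points, 31 lie above the median of their length bin, and Xaf1 and Samhd1 lie far below it.

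Markers of other cells that respond to or make interferon were also compared. Mature single-positive thymocyte markers summed to 543 TPM in the library labelled KO and 596 TPM in the library labelled WT, with Klf2 (19.3 TPM in KO and 41.5 in WT) and S1pr1 (3.61 TPM in KO and 8.28 in WT) the 2 of 10 past the rule, both lower. Over all measured genes 1.37% were lower by the rule and 0.657% higher. On the other exons Klf2 lay at -0.98 and S1pr1 at -0.87, and neither passed. Markers of NK and innate-like T cells summed to 173 TPM in KO and 130 TPM in WT. Of the 10 measured, 8 (80.0%) lay above zero, against 38.5% of all genes, and none passed the rule. The lowest of them lay at -0.90. On the other exons 9 lay above zero, against 31.7% of genes, and 1 was lower by the rule, where 1.16% of genes were. The 8 plasmacytoid dendritic cell markers summed to 996 TPM in KO and 1052 TPM in WT, nearly all of it Ccr9, which thymocytes express, and Siglech stood at 2.15 TPM in KO and 2.59 in WT. Of the 8, 1 passed the rule, Klk1, which was higher (1.87 TPM in KO and 0.241 in WT), where 0.657% of all genes were. Its level was low in both libraries. Of the 15 macrophage and dendritic cell markers 9 were measured, and the list summed to 89.1 TPM in KO and 103 TPM in WT. The 6 B cell markers summed to 65.6 TPM in KO and 56.6 TPM in WT. The 9 thymic epithelial markers summed to 19.3 TPM in KO and 14.0 TPM in WT, with Krt5, Krt8 and Foxn1 at 0 in both. Of the 9, 2 were measured, and both lay above zero without passing the rule. These 2 made up 18.1 TPM in KO and 13.2 TPM in WT. The part of these cells in the differences of the 39 genes was not tested.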

How the data were processed

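There were 2 RNA-seq libraries of sorted CD69-positive DP thymocytes, labelled KO and WT, and groups are the labels'. Per the labels' protocols, 1 ug of Trizol-extracted RNA went into each TruSeq library. The aligner was HISAT2 (its version not given in the sources used here) and the build mm10 (GRCm38), per the submitters' processing notes. Levels of annotated RefSeq transcripts were estimated by the authors with StringTie 1.3.3b, per the file headers, with no new transcripts assembled. The deposited gene tables hold TPM, FPKM and coverage (mean read depth per base, not scaled to library size), and the deposited transcript tables hold coverage per exon. Use of strand in counting is not given, so reads of overlapping genes cannot be told apart.

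TPM was summed over loci of a gene ID. Differences are log2((TPM + 1) in KO / (TPM + 1) in WT) over the 12029 genes that reach 1 TPM in either library, and the 2-fold rule is one of size, not a test. TPM keeps no depth, so read pairs were taken as the covered bases over 202: those of low transcripts (up to 10 pairs) came within 2 bases of a multiple of 202 in 26.5% of cases in KO and 25.9% in WT, against 2.48% by chance. The total of 5076 megabases in KO and 4199 in WT sets the precision. Since PCR copies are not independent molecules, intervals cover counting error only. Exon coverage was scaled to TPM-equivalents. For the other exons, covered bases of all transcripts were divided by the main transcript's length, terminal exon left out, which is a mean depth only for genes with 1 transcript. Shared sequence is the percent of 50-base words of a GENCODE M21 transcript that occur in transcripts of other genes, for the 38 members with a matched transcript. Promoters are from RefSeq (GRCm38.p6).

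The members and lists were chosen with earlier results of these data known. All members are named. In the other pathway lists, genes past the rule and the 2 highest and 2 lowest measured are, and in the marker lists genes past the rule and those at 0 in thymic epithelium. In addition Trim5, Ccr9, Siglech and the paralogs were named. Of the 104 other interferon-stimulated gene names Ifi206, Trim30c and Rnf213 were not matched, and Mnda matched a gene already counted. Ighm, Trdc, Trgc1 and Trgc2 of the markers were not matched. Alternatives were the pseudocount, FPKM, a rescaling by the median ratio, the minimum level, the other exons and length. The code of the rule was run on simulated read pairs with planted changes larger than 2-fold. That run held counting error only, so it cannot show how far libraries of the same genotype differ. Software was Python 3.11.15 with scipy 1.17.1, numpy 2.4.6, matplotlib 3.10.9 and pandas 2.3.3.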

Additional observations from a re-analysis of the deposited data

How the results depend on the processing

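With 1 library per genotype no value has a replicate check, and no paired or leave-one-out comparison exists. No paired analysis was possible because each genotype has a single library. The count of higher members was 2 in place of 4 with a pseudocount of 5 TPM (all genes: 21 higher and 34 lower, in place of 79 and 165), where Ifit1 was at 0.84 and Ifi44 at 0.66, and it was also 2 on the other exons, where the lower count was 1, Ifit1 was at 0.61, Ifi44 at 0.83 and Xaf1 turned to 0.0051. FPKM gave 3 higher and 2 lower members, with Ifi44 at 0.95, where 51 and 50 of 10919 genes were higher and lower. The median of the members, 0.20, became 0.27 with FPKM, 0.26 after rescaling by the median ratio, 0.13 on the other exons and 0.29 relative to genes of similar length, an alternative chosen after seeing the data. The median of all genes moved in the same way, to 0.026 with FPKM, -0.012 after rescaling and -0.14 on the other exons. The near-zero values of Irf9 changed sign with FPKM (0.076), rescaling (0.042) and length (0.015), that of Parp14 with length (0.17), and those of Ifit3 (-0.44), Ddx58 (-0.10), Slfn1 (0.04) and Gbp2 (-0.02) on the other exons. Both member counts were again 4 and 2 with a pseudocount of 0.1 TPM (all genes: 139 higher and 305 lower), with a minimum of 5 TPM (46 and 83 of 9907 genes, 36 members) and after rescaling (90 and 150 of 12052). With no minimum they were the same (79 and 165 of 24532), which was fixed in advance. With 1 TPM added, a gene under 1 TPM in both libraries cannot pass the rule. Genes at low depth, such as Ifi44l with about 38.1 read pairs in the library labelled WT, have wide intervals.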
